A study of Mus musculus with 48 samples.

Results

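The inhibitory interneuron genes described here are 29 genes of cortical and hippocampal GABAergic interneurons, taken by symbol from a fixed list and matched through their Ensembl IDs to the RNA counts of the study. All 29 were found among the 47569 gene IDs that the count tables of both RNA materials share, and all 29 had reads. The study compared adult C57BL/6J mice of 4 to 6 months labelled Setd1b cKO (conditional knockout) with mice labelled Control, in the hippocampal CA region. Setd1b encodes a methyltransferase that acts on lysine 4 of histone H3. RNA came from CA neurons (3 libraries of each genotype) and from whole CA tissue (6 of each), and H3K4me3 was profiled in sorted neuronal nuclei (4 of each). Sorted nuclei also gave peaks of H3K4me1 (4 of each), H3K27ac (4 cKO, 3 Control) and H3K9ac (3 cKO, 4 Control). The labels give no Cre driver and no floxed exon, and they do not state which alleles the Control mice carried. In the published study, as recalled, Cre was driven by the CamKII promoter, which is active in excitatory neurons of the forebrain. A deletion of that kind would leave the gene intact in interneurons, so the question put to the data was how stable these 29 genes were between the genotypes.

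GABAergic interneurons make up a minority of hippocampal neurons and inhibit the excitatory pyramidal cells around them. They synthesise GABA from glutamate with the glutamate decarboxylases encoded by Gad1 and Gad2. They arise outside the hippocampus, in the ganglionic eminences, under DLX transcription factors. The medial eminence gives rise to parvalbumin and somatostatin cells under Lhx6 and Sox6, and the caudal eminence gives rise to a more varied set that includes neurogliaform, calretinin and cannabinoid-receptor cells. In bulk RNA, fewer cells of a type and less RNA per cell cannot be told apart.

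Counted reads per library came to 55.7 to 69.1 M for neuron RNA and to 14.9 to 20.1 M for whole CA RNA. Between 21 reads (Dlx5) and 7877 reads (Gad1) fell on a member in a whole CA library, and between 204 (Dlx5) and 28105 (Cnr1) in a neuron library. All 29 members passed the filter on low counts in every comparison. Glial, microglial and vascular markers were far lower in neuron RNA than in whole CA RNA, with list medians of -5.51 to -4.23 log2 across astrocytes, oligodendrocytes, their precursors, microglia and vessels. The 6 pan-neuronal genes were not higher in neuron RNA, however: all 6 were lower by sign, with a median of -1.04 log2. Of these, 5 were called at an adjusted p under 0.05 (edgeR). Reads over the whole Setd1b gene were no fewer with the cKO label: the difference was 0.25 ± 0.13 log2 (SE) for neurons (adjusted p = 0.361) and 0.59 ± 0.11 log2 for whole CA tissue (adjusted p = 0.00415, edgeR). A count over the whole gene cannot show the loss of a part of it, so the labels were not checked by it, and cKO and Control below mean libraries so labelled.

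The 250 bases upstream of 4 start sites are shown, chosen because the results below turn on these genes: the GABA-synthesising pair, the member nearest to a call in RNA and the member with the clearest H3K4me3 difference. Sequences are those of RefSeq on GRCm38.p6, written 5′ to 3′ on the strand of the gene. Gad1 lies at chr2:70561879-70562128 on the plus strand, Gad2 at chr2:22622077-22622326 on the plus strand, Kit at chr5:75574741-75574990 on the plus strand and Dlx6os1 at chr6:6861684-6861933 on the minus strand. Capitals mark matches, on either strand, to TAATTA (the core bound by DLX and many other homeodomain proteins), GGGCGG (the GC box) and TATAAA (the TATA box).
Gad1: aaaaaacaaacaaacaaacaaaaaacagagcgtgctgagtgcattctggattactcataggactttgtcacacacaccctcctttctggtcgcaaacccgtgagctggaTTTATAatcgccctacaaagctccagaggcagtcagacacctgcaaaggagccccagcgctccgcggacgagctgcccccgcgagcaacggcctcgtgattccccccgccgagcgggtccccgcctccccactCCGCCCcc
Gad2: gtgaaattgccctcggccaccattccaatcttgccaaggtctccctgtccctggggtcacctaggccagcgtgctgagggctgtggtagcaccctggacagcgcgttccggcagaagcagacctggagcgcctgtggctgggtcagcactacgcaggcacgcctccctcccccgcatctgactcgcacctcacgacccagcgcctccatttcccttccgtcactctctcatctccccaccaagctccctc
Kit: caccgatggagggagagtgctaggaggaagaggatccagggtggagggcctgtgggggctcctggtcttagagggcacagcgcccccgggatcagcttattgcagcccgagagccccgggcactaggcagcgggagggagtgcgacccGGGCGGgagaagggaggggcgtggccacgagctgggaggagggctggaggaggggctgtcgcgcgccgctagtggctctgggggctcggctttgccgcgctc
Dlx6os1: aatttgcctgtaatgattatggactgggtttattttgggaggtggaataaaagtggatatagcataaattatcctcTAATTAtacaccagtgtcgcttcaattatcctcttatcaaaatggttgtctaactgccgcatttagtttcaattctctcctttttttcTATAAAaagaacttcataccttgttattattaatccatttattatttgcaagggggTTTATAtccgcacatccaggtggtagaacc

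RefSeq starts were matched for 23 of the 29 members. GGGCGG was present in 13 of these 23 upstream windows, against 32.7% of all 32851 windows. TAATTA was present in 2 of 23 (Dlx6os1 and Adarb2), against 4.84% of all windows, and TATAAA in 2 of 23 (Gad1 and Dlx6os1), against 12.4%. The median GC content of the members' windows was 62.4%, against 52.4% for all windows. Dlx6os1 had the lowest, 34%, and held TAATTA and TATAAA but no GGGCGG. The Gad2 window held none of the 3 motifs. A match is a description of letters and not of binding. Each member's window lay at its start with the greatest mean H3K4me3 coverage, while the background held every start, whatever its coverage. The sets were chosen differently, so their contrasts in motifs and GC content cannot be read as particular to interneuron genes.

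No interneuron gene was called between the genotypes in either RNA material. In neuron RNA, 0 of 29 passed an adjusted p under 0.05 (edgeR quasi-likelihood test, Benjamini-Hochberg over all genes), where 2.75% of the 19622 genes tested did. In whole CA RNA, 0 of 29 passed, where 4.17% of 15362 did. These background shares are low, so a count of 0 among 29 is near the background and is not in itself particular to interneuron genes. The size of the differences carries more information. The largest log2 fold change of any member was 0.35 in neurons and 0.36 in whole CA tissue, in absolute terms. The median over the members was 0.05 in neuron RNA, against 0.02 over all genes tested, and -0.02 in whole CA RNA, against -0.0027. At an unadjusted p under 0.05, 4 of 29 members stood out in neuron RNA (13.8%, background 17.2%) and 3 of 29 in whole CA RNA (10.3%, background 15.7%).

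The precision of the libraries set how small a change could have been seen. The 95% interval of the fold change lay inside 1.5-fold in either direction for 25 of 29 members in neuron RNA (86.2%, against 60.7% of all genes tested). It did so for 26 of 29 in whole CA RNA (89.7%, against 80.3%) and for 23 members in both. The exceptions were Calb2, Dlx6os1, Erbb4 and Nos1 in neuron RNA, and Calb2, Dlx5 and Sp9 in whole CA RNA. For all 29 members the interval lay inside 2-fold in each material, as it did for 82.8% of all genes in neurons and 95.3% in whole CA tissue. These shares depend on how strongly a gene is counted, and the members were not matched to other genes on that.

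**Figure D1:**
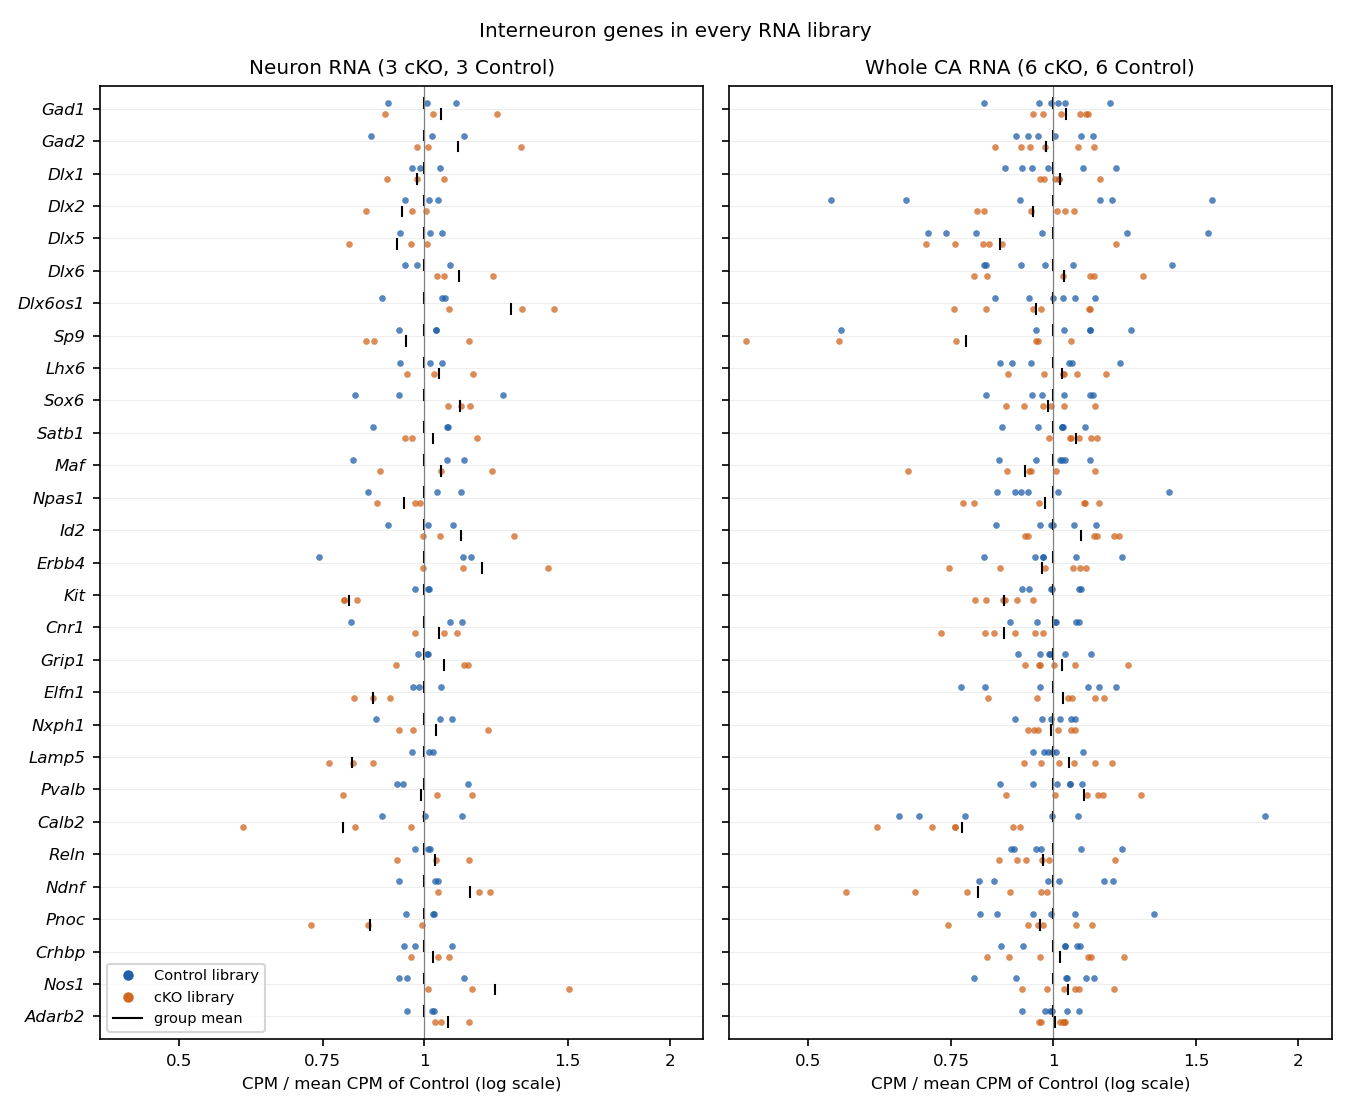
CPM of each of the 29 genes in every RNA library, divided by the gene's mean in Control libraries of the same material (log axis; points, libraries; ticks, group means). The genotypes overlap for 24 of 29 genes in neurons and for all 29 in whole CA tissue.

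The genotypes overlapped for both GABA-synthesising enzymes. In neuron RNA, Gad1 stood at 227, 311 and 260 CPM (read counts scaled to library size with TMM factors) in the cKO libraries and at 228, 255 and 277 CPM in the Control libraries. Gad1 in whole CA tissue ranged from 343 to 401 CPM with a median of 382 in cKO, and from 299 to 426 with a median of 365 in Control. The groups overlapped in both materials. The Gad1 log2 fold change was 0.07 ± 0.13 (SE; 95% interval -0.22 to 0.35) in neurons and 0.05 ± 0.07 (-0.10 to 0.20) in whole CA tissue. Gad2 stood at 138, 185 and 143 CPM in cKO neuron RNA and at 121, 144 and 158 CPM in Control neuron RNA. Gad2 in whole CA tissue ranged from 198 to 263 CPM (median 224) in cKO and from 211 to 262 (median 230) in Control. Its log2 fold change was 0.14 ± 0.14 (-0.16 to 0.44) in neurons and -0.03 ± 0.07 (-0.18 to 0.12) in whole CA tissue. In whole CA RNA the lower bound of the interval was a change of -6.40% for Gad1 and of -11.8% for Gad2.

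The 11 transcription factors were likewise not called in either material: Dlx1, Dlx2, Dlx5 and Dlx6, which specify GABAergic neurons, Sp9, Lhx6, Sox6, Satb1, Maf, Npas1 and Id2. Their median log2 fold change was 0.04 in neurons and -0.02 in whole CA tissue. Lhx6, the LIM-homeodomain factor of medial-eminence interneurons, stood at 19.6, 21.9 and 18.1 CPM in cKO neuron RNA and at 19.4, 17.8 and 20.04 CPM in Control. Lhx6 in whole CA tissue ranged from 19.3 to 25.4 CPM (median 22.5) in cKO and from 18.8 to 26.4 (median 21.7) in Control. Lhx6 thus overlapped throughout, with log2 fold changes of 0.06 ± 0.10 and 0.04 ± 0.09. Sp9, a zinc-finger factor of the ganglionic eminences, had the largest value of these factors in whole CA RNA. It ranged from 1.502 to 3.76 CPM (median 3.06) in cKO and from 1.96 to 4.45 (median 3.82) in Control, so that the groups overlapped widely. The Sp9 log2 fold change was -0.35 ± 0.22 (interval -0.82 to 0.11, adjusted p = 0.489) there and -0.07 ± 0.14 in neuron RNA. In neuron RNA Sp9 stood at 3.74, 4.90 and 3.66 CPM in cKO and at 4.02, 4.45 and 4.46 CPM in Control.

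Dlx6os1, a long noncoding RNA that overlaps Dlx6 on the opposite strand, had the largest positive value in neuron RNA. It stood at 25.9, 34.7 and 31.7 CPM in the 3 cKO libraries and at 21.4, 25.3 and 25.6 CPM in the 3 Control libraries. Every cKO library lay above every Control library, by little in the closest case. The Dlx6os1 log2 fold change was 0.35 ± 0.12 (interval 0.07 to 0.63), but it did not pass after adjustment (adjusted p = 0.192, edgeR). Dlx6os1 in whole CA tissue ranged from 19.7 to 29.1 CPM (median 24.97) in cKO and from 22.2 to 29.4 (median 26.5) in Control, with a log2 fold change of -0.07 ± 0.10. The kit does not mark strand, so reads of Dlx6os1 and Dlx6 cannot be told apart where the genes overlap. Dlx6 itself had log2 fold changes of 0.14 ± 0.11 and 0.05 ± 0.16.

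Among the 7 receptors, scaffolds and adhesion genes, Kit was the member closest to a call in both materials. Kit encodes the receptor tyrosine kinase for stem cell factor. It stood at 144, 150 and 144 CPM in cKO neuron RNA and at 183, 184 and 176 CPM in Control, with no overlap. Kit in whole CA tissue ranged from 130 to 153 CPM (median 141) in cKO and from 149 to 175 (median 161) in Control, where the highest cKO library reached into the Control range. The log2 fold change was -0.31 ± 0.08 (adjusted p = 0.0756) in neurons and -0.20 ± 0.06 (adjusted p = 0.0567) in whole CA tissue, both by edgeR. With DESeq2, Kit was called in both, with adjusted p = 0.0146 and 0.0288. DESeq2 called 4.25% of all genes in neurons and 5.77% in whole CA tissue, more than edgeR did. Kit was also the only member with an unadjusted p under 0.05 in both materials. The file names place whole CA replicates 1 to 3 on 1 sequencing lane and replicates 4 to 6 on the other. The Kit value was -0.21 in replicates 1 to 3 and -0.19 in replicates 4 to 6, called in neither (adjusted p = 0.296 and 0.442, edgeR).

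Cnr1, the cannabinoid receptor of cholecystokinin interneurons, stood at 401, 417 and 370 CPM in cKO neuron RNA and at 308, 422 and 408 CPM in Control. Cnr1 in whole CA tissue ranged from 237 to 316 CPM (median 283) in cKO and from 288 to 349 (median 327) in Control. The genotypes overlapped in both. The Cnr1 log2 fold change was 0.06 ± 0.13 in neurons and -0.20 ± 0.07 in whole CA tissue (adjusted p = 0.126, edgeR). It was -0.24 in whole CA replicates 1 to 3 and -0.16 in replicates 4 to 6, and with lane as a covariate the adjusted p was 0.1004. Erbb4, the neuregulin receptor of interneurons, stood at 142, 180 and 126 CPM in cKO neuron RNA and at 94.0, 145 and 142 CPM in Control. Its whole CA values ranged from 79.8 to 117 CPM (median 109) in cKO and from 88.3 to 130 (median 104) in Control. The groups overlapped in both materials, and the libraries of both genotypes were widely spread in neuron RNA (SD 27.5 CPM in cKO and 28.4 CPM in Control, n = 3). The Erbb4 log2 fold change was 0.23 ± 0.18 there and -0.04 ± 0.10 in whole CA RNA.

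Lamp5, a lysosome-associated membrane protein that marks neurogliaform cells, stood at 33.6, 38.0 and 35.9 CPM in cKO neuron RNA and at 45.0, 44.5 and 42.4 CPM in Control, without overlap. Lamp5 in whole CA tissue ranged from 27.8 to 35.6 CPM (median 31.3) in cKO and from 28.5 to 32.8 (median 29.8) in Control, with overlap. The Lamp5 log2 fold change was -0.29 ± 0.08 in neuron RNA (adjusted p = 0.113, edgeR) and 0.07 ± 0.07 in whole CA RNA. Elfn1, a postsynaptic adhesion protein of medial-eminence interneurons, was 22.9, 25.4 and 24.2 CPM in cKO neuron RNA and 29.3, 27.5 and 27.1 CPM in Control. These groups did not overlap either, and the value was -0.21 ± 0.09 (adjusted p = 0.255). Grip1, an AMPA-receptor scaffold, and Nxph1, a neurexin ligand, lay between -0.01 and 0.08 log2 in both materials.

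The calcium-binding proteins differed in how well they were measured. Pvalb, parvalbumin, stood at 3.33, 4.80 and 4.35 CPM in cKO neuron RNA and at 3.89, 3.95 and 4.75 CPM in Control. Pvalb in whole CA tissue ranged from 31.6 to 46.2 CPM (median 40.3) in cKO and from 31 to 39.1 (median 37.1) in Control. The groups overlapped, with log2 fold changes of -0.01 ± 0.16 and 0.13 ± 0.08. Calb2, calretinin, stood at 5.39, 8.65 and 7.38 CPM in cKO neuron RNA and at 8.997, 7.96 and 9.9996 CPM in Control. Calb2 in whole CA tissue ranged from 5.05 to 7.57 CPM (median 6.29) in cKO and from 5.37 to 15.1 (median 7.37) in Control. Calb2 was the most negative member in both materials, -0.33 ± 0.17 and -0.36 ± 0.21, and it was far from a call in both (adjusted p = 0.345 and 0.442). Its coefficient of variation in whole CA Control, 43.6%, was the highest of any member in any RNA group, and replicate 1 of that group held the 15.1 CPM.

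The secreted and peptide genes were Reln, Ndnf, Pnoc and Crhbp. Reln, the extracellular protein reelin, stood at 86.2, 106 and 96.2 CPM in cKO neuron RNA and at 90.6, 94.1 and 94.8 CPM in Control. Reln in whole CA tissue ranged from 61.6 to 85.7 CPM (median 68.1) in cKO and from 63.8 to 87.2 (median 68.9) in Control. Reln overlapped in both, at 0.04 ± 0.09 and -0.04 ± 0.09 log2. The sign of Reln differed between the whole CA lanes, at -0.22 in replicates 1 to 3 and 0.15 in replicates 4 to 6 (adjusted p = 0.337 and 0.648, edgeR). Ndnf, a secreted factor of neurogliaform cells, stood at 32, 37.1 and 35.9 CPM in cKO neuron RNA and at 28.6, 32 and 31.7 CPM in Control. Its whole CA values ranged from 16.2 to 28.7 CPM (median 24.4) in cKO and from 23.7 to 34.6 (median 29.2) in Control. The Ndnf values pointed in opposite directions, 0.19 ± 0.09 in neurons and -0.30 ± 0.13 in whole CA tissue, and neither passed (adjusted p = 0.346 and 0.243). By lane, the whole CA value of Ndnf was -0.44 in replicates 1 to 3 and -0.14 in replicates 4 to 6. Pnoc, the precursor of nociceptin, was at -0.22 ± 0.13 and -0.04 ± 0.13, and Crhbp, which binds corticotropin-releasing hormone, at 0.04 ± 0.10 and 0.03 ± 0.09. Of the enzymes, Nos1 (neuronal nitric oxide synthase) was at 0.29 ± 0.14 and 0.06 ± 0.08, and Adarb2 (an RNA-editing deaminase homologue) at 0.10 ± 0.08 and 0.01 ± 0.06.

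**Figure D2:**
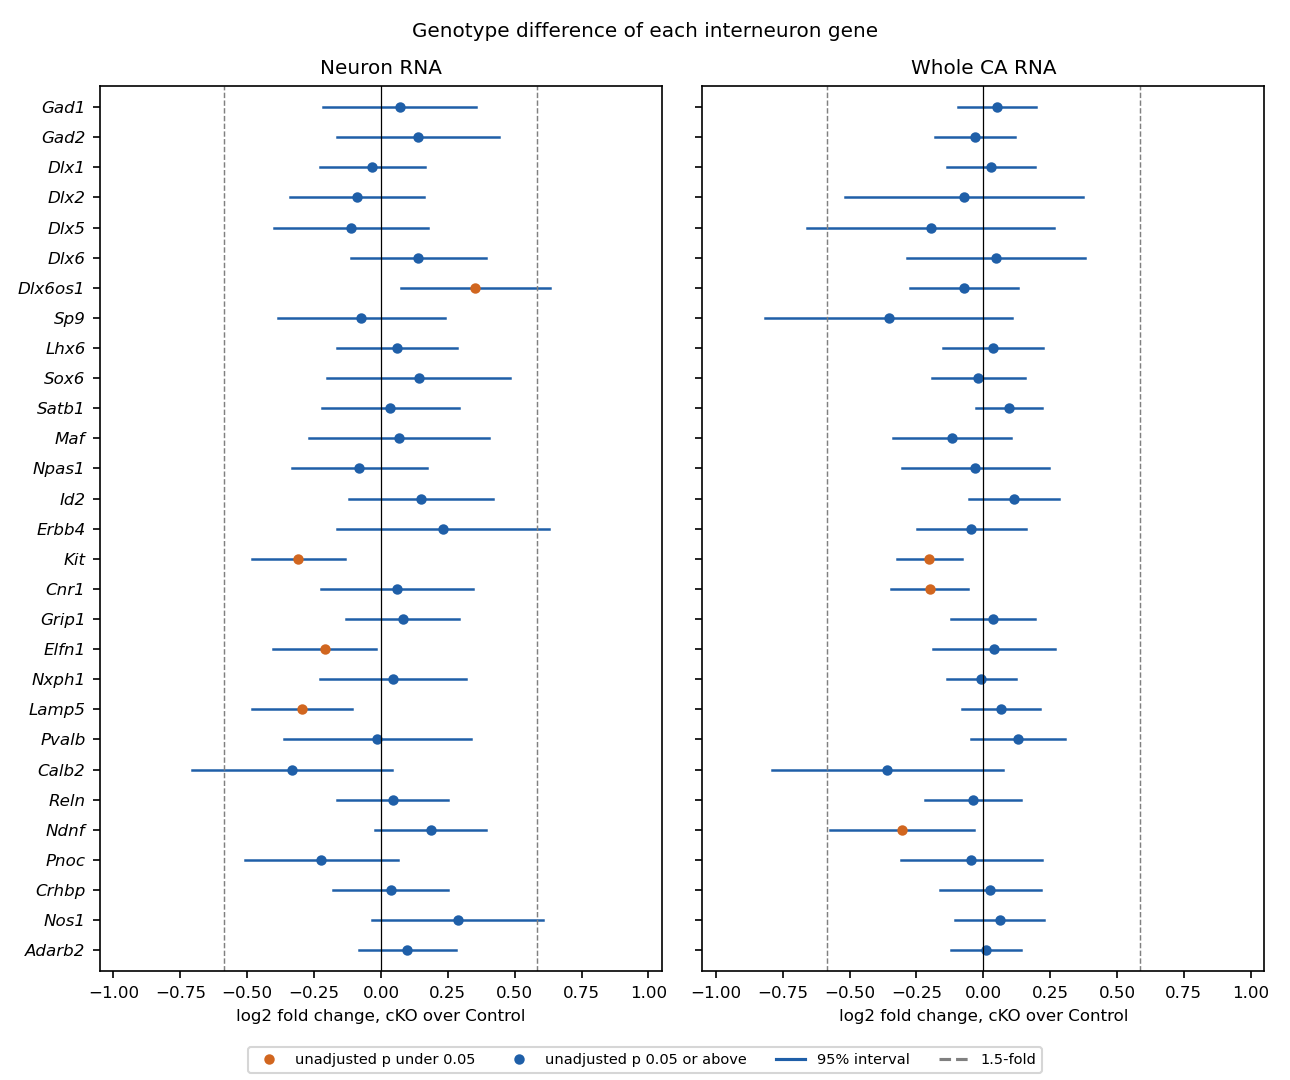
Log2 fold change of each of the 29 genes, cKO over Control, in neuron RNA and whole CA RNA (points, edgeR estimates; bars, 95% intervals; dashed lines, 1.5-fold). The points lie between -0.36 and 0.35, and the intervals of 23 genes stay between the dashed lines in both panels.

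The genotypes did not overlap for 5 of 29 members in neuron RNA (17.2%, against 23.9% of all genes with 3 libraries a group). Adarb2 and Dlx6os1 were the higher ones and Elfn1, Kit and Lamp5 the lower ones. In whole CA RNA 0 of 29 members were separated, against 3.08% of all genes with 6 libraries a group. Between the 2 sequencing lanes of whole CA RNA, the sign of the fold change was shared by 15 members (9 lower and 6 higher in both) and opposite for 14, Gad1 among them (-0.06 in replicates 1 to 3 and 0.17 in 4 to 6). No member was called within either lane. The sign of the fold change was shared between the materials for 16 members (9 higher and 7 lower in both) and opposite for 13. By developmental origin, the median log2 fold change was 0.04 in neurons and 0.03 in whole CA tissue for the 8 medial-eminence genes. It was 0.06 and -0.03 for the 7 caudal-eminence genes, and 0.08 and -0.04 for the 10 genes common to interneurons.

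The summed level of the 29 genes overlapped between the genotypes as well. It was 1752, 1792 and 2040 CPM in the cKO neuron libraries, in rising order, and 1637, 1874 and 1899 CPM in the Control ones. For whole CA tissue the sum ranged from 1831 to 2101 CPM (median 2032) in cKO and from 1856 to 2185 (median 2046) in Control. By comparison, the summed level of 17 excitatory-neuron genes did not overlap in neuron RNA, at 2990 to 3432 CPM in cKO and 3449 to 4102 CPM in Control. Among single genes, 23.9% did not overlap there. The excitatory sum in whole CA tissue was 6717 to 7626 CPM in cKO and 7341 to 8149 CPM in Control, with overlap. Of these 17 genes, 4 were called lower in neurons, where 2.0% of all genes were lower and 0.744% higher. In whole CA tissue 6 were called lower, where 2.79% of all genes were lower and 1.38% higher, and none of the 17 was called higher in either. Neurod6, a transcription factor of pyramidal cells, fell by 2.24 log2 in neurons and by 1.78 in whole CA tissue. Of the 8 dentate granule genes, 5 were called lower in neurons and 3 in whole CA tissue. The lists were chosen with earlier results of these data known, so the contrast between them is not independent support. Whether the interneuron genes as a list differed from the excitatory ones was not tested.

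**Figure D3:**
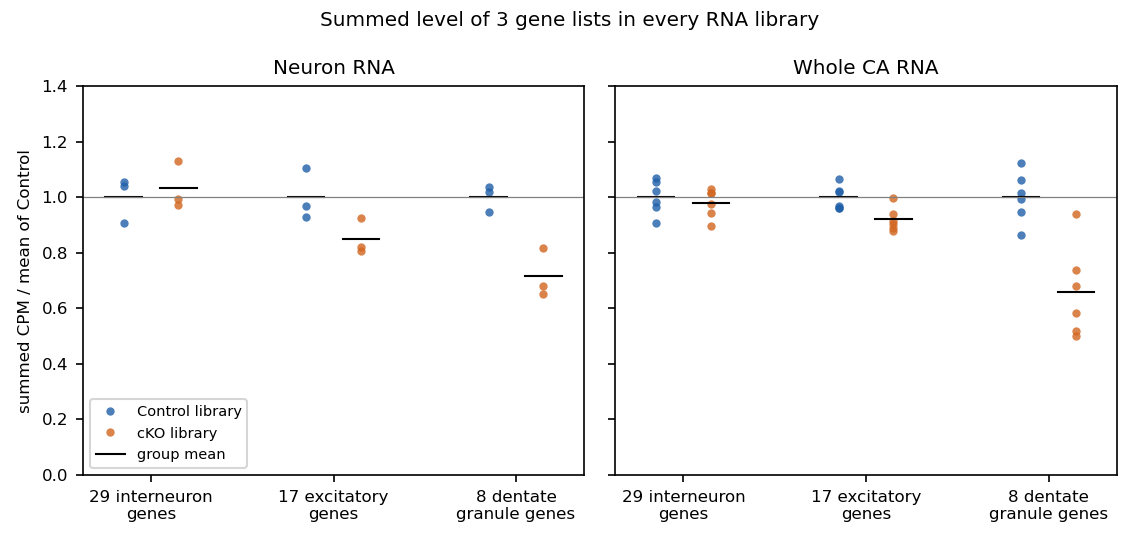
Summed CPM of the 29 interneuron genes, 17 excitatory-neuron genes and 8 dentate granule genes in every RNA library, divided by the mean of the Control libraries of that material (points, libraries; lines, group means). The interneuron sums of cKO and Control overlap in both panels, and the excitatory and dentate granule sums are lower in cKO by their group means.

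Other genes of interneurons and of GABA signalling, 27 in a separate list, included some that were called; whether this list differed from the 29 genes was not tested. In neuron RNA 2 of 26 tested were called (2.75% of all genes were; list median -0.09 log2), both lower: Penk, the enkephalin precursor, fell by 0.69 log2 (20.9 ± 1.13 CPM in cKO against 33.6 ± 1.68 in Control, SD, n = 3, adjusted p = 0.00309). Cck, cholecystokinin, fell by 0.58 log2 (93.9 ± 3.91 against 140 ± 6.99 CPM, adjusted p = 0.00574). In whole CA RNA 3 of 25 were called (4.17% of all genes were; list median -0.01 log2). Penk fell by 0.64 log2 (adjusted p = 0.00185) and Etv1, an ETS transcription factor, by 0.58 (adjusted p = 0.00373). Cort, the peptide cortistatin, rose by 1.06 log2 from 2.12 ± 0.67 to 4.40 ± 2.27 CPM (SD, n = 6, adjusted p = 0.0472), with overlap between the groups. Penk, Cck and Etv1 are known in excitatory neurons as well, so a change in them cannot be placed in interneurons from bulk RNA. The same limit holds for the 29 members. Bulk RNA does not place their values in interneurons, nor does it show that these cells were unchanged. Of other cell-type lists, S100b (1 of 8 astrocyte genes) and Kdr (1 of 6 vessel genes tested) were called lower in neuron RNA (background 2.0%). By sign, 5 astrocyte genes were lower and 3 higher, and 4 vessel genes were lower and 2 higher. In whole CA RNA (background 2.79%), Drd1 (1 of 6 striatal projection neuron genes tested) and Aqp4 (1 of 8 astrocyte genes) were called lower. So were Cx3cr1 (1 of 7 microglial genes) and Kdr (1 of 7 vessel genes). By sign, the striatal list held 3 lower and 3 higher genes and the astrocyte list 7 and 1. The microglial list held 7 and 0 and the vessel list 5 and 2. The part of these cell types in the members' values was not tested.

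No member was called for a difference in its genotype effect between the materials. The interaction contrast called 0 of 29, where the background was 0.16% of 17523 genes, so again a count of 0 lies near the background. Its unadjusted p was under 0.05 for 3 members (background 8.11%): Lamp5 at -0.35 ± 0.11, Dlx6os1 at 0.43 ± 0.16 and Ndnf at 0.50 ± 0.20 log2, neuron effect minus whole CA effect. Their adjusted p values were 0.412, 0.534 and 0.569 (edgeR). The differences of these 3 were therefore not resolved, and their 95% intervals ran from -0.58 to -0.12, from 0.10 to 0.77 and from 0.09 to 0.90. For Kit the difference was -0.10 ± 0.10.

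Differences between the RNA materials were larger than those between the genotypes. Between Control libraries, 21 of 29 members were called between neuron RNA and whole CA RNA, against 83.6% of all 16859 genes tested. Of the members 13 were lower in neuron RNA (background 40.1%) and 8 higher (background 43.6%). Pvalb was 3.62, 3.61 and 4.42 CPM in neurons and 32.1 to 40.6 CPM (median 38.2) in whole CA tissue when scaled together, with no overlap, a log2 fold change of -3.26 ± 0.11 or 9.57-fold lower. Sox6, the transcription factor of medial-eminence cells, was 3.85, 4.28 and 5.83 CPM against 22.1 to 29.6 (median 26.6), at -2.51 ± 0.14. Crhbp was 12.1, 12.3 and 13.8 CPM against 39.5 to 48.9 (median 47.1), at -1.84 ± 0.10. These 3 were among 19 members whose materials did not overlap, against 76.7% of all genes.

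Of the 8 medial-eminence genes 7 were called lower in neuron RNA and 0 higher (40.1% and 43.6% of all genes), with a median of -0.70 log2. Elfn1 did not pass, at -0.09, and its sign changed under at least 1 alternative. In the separate list of other interneuron and GABA genes, 14 of 26 tested were called lower and 7 higher. Whether origin sets the direction was not tested. Of the 7 caudal-eminence genes, Id2 was lower (-1.70) and Lamp5 (0.39), Npas1 (1.17) and Adarb2 (1.43) were higher. Of the 10 genes common to interneurons, Gad1 (-0.68), Gad2 (-0.89) and Dlx6os1 (-0.28) were lower and Dlx1 (0.46), Dlx2 (0.77), Dlx5 (0.91) and Grip1 (0.58) were higher. Of the remaining ones, Nos1 (-1.70) and Pnoc (-0.35) were lower and Reln (0.22) was higher. With scaling by library size only, the median over all genes moved from 0.07 to 0.23 log2. The members then split 9 lower and 11 higher, where 83.9% of all 16859 genes were called, 58.1% of them higher. Lhx6, Nxph1, Pnoc and Dlx6os1 then did not pass and Dlx6, Cnr1 and Kit did. The call held in every one of 16 alternatives for 16 of the 21 members, in 15 for Lhx6 and Nxph1, in 13 for Dlx6os1 and in 12 for Pnoc. The Reln call (adjusted p = 0.0375) held in only 6 of the 16 and was lost with RLE factors, with DESeq2, with a mean count of at least 10, without neuron Control replicate 2 or 3, and without whole CA Control replicate 3, 4, 5 or 6. With whole CA replicates 1 to 3 only, Reln was at 0.07 log2 (adjusted p = 0.535). Reads of mitochondrial genes made up 0.00814 to 0.0128% of the counts in neuron Control libraries and 4.33 to 6.17% in whole CA Control libraries, and their part in these differences was not tested. The 6 pan-neuronal genes had a median of -1.04 log2 in the same comparison, with 5 of 6 called lower in neuron RNA. The labels do not state how neuron RNA was isolated, from whole cells or from nuclei. The materials also differ in preparation, depth and sequencing run, which cannot be told apart.

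**Figure D4:**
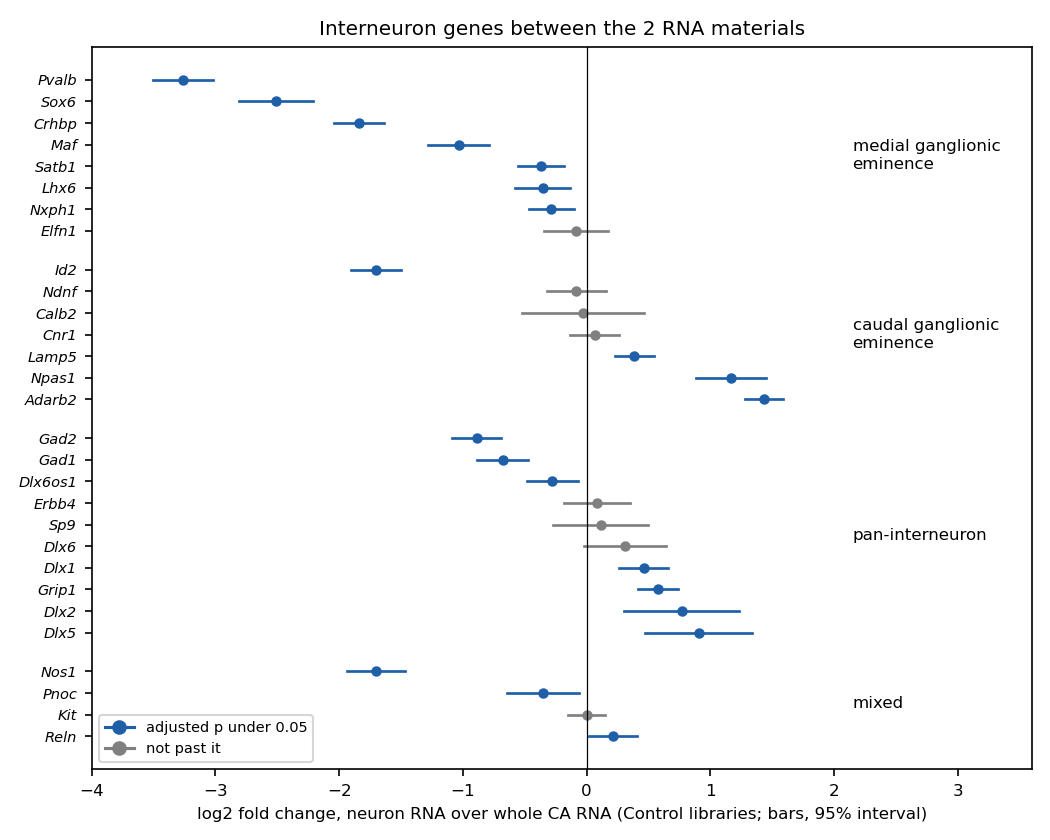
Log2 fold change of each of the 29 genes between neuron RNA and whole CA RNA in Control libraries, by developmental origin (points, edgeR estimates; bars, 95% intervals; blue, adjusted p under 0.05). All 8 medial-eminence genes lie left of 0, from -3.26 for Pvalb to -0.09 for Elfn1.

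H3K4me3 marks the start of active genes, and it is the mark that the SETD1 enzymes place. Its peaks were measured as the base pairs covered within 1 kb on either side of the RefSeq start, a window of 2001 bp. Of the 23 members with a start, 22 had a peak there in all 8 libraries. Nos1 had none in any, and was not tested. No member was called between the genotypes (0 of 22; limma, background 1.18% of 14205 genes), so this count too is near the background. Gad1, Cnr1, Grip1 and Nxph1 were covered over the whole window in all 8 libraries, as 9.13% of all genes tested were, and a longer peak could not have been seen there. Gad2 was covered over 1499, 1618, 1545 and 1548 bp in cKO and 1806, 1677, 2001 and 1524 bp in Control, with overlap. Pvalb was covered over 674, 1098, 991 and 796 bp in cKO and 1008, 796, 1151 and 932 bp in Control, also with overlap. Kit was covered over 1562, 1576, 1651 and 1553 bp in cKO and 1604, 1776, 1658 and 1670 bp in Control (log2 difference -0.08 ± 0.03, adjusted p = 0.508).

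Dlx6os1 was the one member whose H3K4me3 windows did not overlap between the genotypes, against 6.34% of all genes. It was covered over 1392, 1253, 1467 and 1444 bp in cKO and 1224, 1222, 1146 and 1145 bp in Control. All 4 cKO libraries were the longer, by 0.21 ± 0.05 log2 (adjusted p = 0.189, limma). Without cKO replicate 2, the shortest of the 4, the difference was 0.26 and passed (adjusted p = 0.032, limma, where 1.34% of 14112 genes did). Leaving out the shortest library raises the cKO mean by construction, so this pass adds no support. With each other replicate left out, Dlx6os1 was not called. Dlx6os1 RNA in neurons, from other libraries, had the same sign and also missed the threshold. In whole CA RNA the sign was opposite, at -0.07 ± 0.10 log2 (SE). By group means at this start, H3K27ac was shorter in cKO, at 114 ± 208 bp (n = 4) against 546 ± 543 bp (n = 3). H3K4me1 (187.5 ± 154 against 93.5 ± 63.3 bp) and H3K9ac (107 ± 185 against 47.25 ± 94.5 bp) were longer. These marks overlapped between the genotypes (errors are SD) and were not tested.

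In a wider window of 2 kb on either side, 14.8% of all 14771 genes were called, 2106 of 2193 of them lower in cKO. None of the 23 members was. The members' log2 differences ranged from -0.16 (Adarb2) to 0.09 (Dlx6os1), 16 of 23 were negative, and their median was -0.02, against -0.06 over all genes. Here Gad1 was covered over 3214 ± 114 bp in cKO and 3240 ± 119 bp in Control (SD, n = 4). Kit was covered over 2488 ± 104 bp in cKO and 2677 ± 72.0 bp in Control, a difference of -0.10 log2 (adjusted p = 0.113). Peak length does not measure the height of the mark. All libraries of a genotype were called against a single input library, so input and genotype cannot be told apart.

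The other marks at the same starts were described without a test. H3K4me1 peaks were present in every library for 20 of 23 members, H3K9ac peaks for 18 and H3K27ac peaks for 9. Within 1 kb of the start, Sp9 had no H3K27ac or H3K9ac peak in any library, and Nos1 had H3K4me1 peaks only. The genotypes did not overlap for 1 member in H3K4me1 (background 8.2%), Pvalb, covered over 1679 ± 138 bp in cKO and 1506 ± 28.3 bp in Control (SD, n = 4). In H3K9ac they did not overlap for 1 member (background 9.19%), Sox6, covered over 291 ± 116 bp in cKO (n = 3) and 546 ± 82.8 bp in Control (n = 4). In H3K27ac they overlapped for all 23 (0 separated, background 8.72%). By group means, without a test, H3K27ac was shorter in cKO at 16 of 23 members (69.6%, against 59.3% of all genes with a tested start) and longer at 4. Gad2, for example, had 0, 910, 248 and 296 bp in cKO and 1616, 206 and 917 bp in Control, with wide overlap. H3K4me1 was longer in cKO at 19 of 23 members (82.6%, against 68.7% of all genes) and shorter at 1. Cnr1 had 2001, 743, 2001 and 894 bp of H3K4me1 in cKO and 431, 567, 517 and 1096 bp in Control, again with overlap. H3K9ac was shorter at 11 members and longer at 10.

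**Figure D5:**
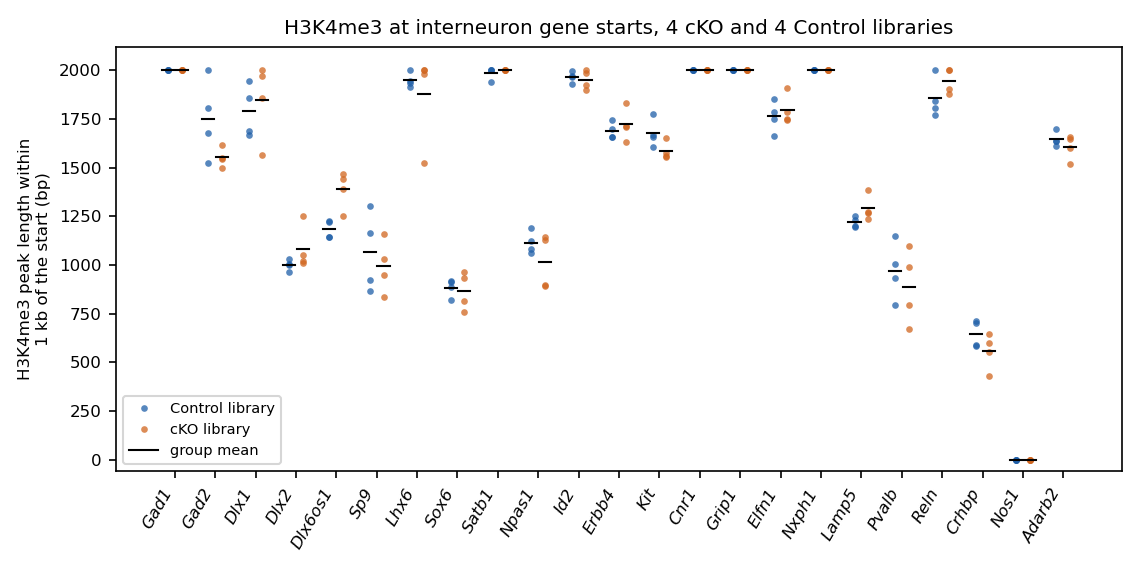
Base pairs covered by H3K4me3 peaks within 1 kb of the start of 23 interneuron genes in 4 cKO and 4 Control libraries (points, libraries; lines, group means). The genotypes overlap for every gene shown except Dlx6os1, and Nos1 is at 0 in all 8.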

How the data were processed

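RNA-seq used a TruSeq RNA v2 kit, which does not mark strand, and ChIP-seq used sorted neuronal nuclei, per the labels' protocols; those protocols describe RNA isolation with TRIZOL for whole tissue only. The authors deposited whole-number read counts per Ensembl gene ID and library; the aligner and counter are not given in the sources used here. Peaks were called per library with MACS 2.1.1.20160309 (H3K4me3) or 2.1.0.20140616 (other marks), at a q-value cutoff of 0.1 and against 1 input per genotype, per the file headers. The deposited lists hold each peak's length and −log10 of its q-value. The build was mm10/GRCm38, per the submitters' processing notes.

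Counts were tested with edgeR 4.0.16 (TMM, filterByExpr, quasi-likelihood) on all genes, with Benjamini-Hochberg adjustment and calls at an adjusted p under 0.05. SE is the log2 fold change over the root of F, and intervals use the t quantile (tested on simulated data). H3K4me3 covered length plus 100 bp was compared on the log2 scale with limma 3.58.1, over genes with a peak in at least 3 libraries, at the RefSeq start with the greatest mean coverage. Alternatives were RLE factors, library size only, other filters, DESeq2 1.42.0, an adjusted p under 0.1, replicates left out, replicate blocks, sequencing lanes, and other windows, offsets and peak thresholds.

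By rule, values in every neuron RNA library are given for Gad1, Gad2, Pvalb, Lhx6, Reln, Calb2, Cnr1 and Erbb4. The same holds for members called between the genotypes (there were none) and for the 3 with the largest absolute log2 fold change in a comparison. For whole CA libraries the range and the median are given. Elfn1 and the genes with H3K4me3 lengths were added after their values were seen. Called genes of other lists are named, at most 5 per list. The members and lists were chosen with earlier results of these data known. The labels do not say that libraries came from separate animals, so p-values measure the spread between libraries, which may be technical. Levels were not compared between genes, since no transcript lengths were used.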

Additional observations from a re-analysis of the deposited data

Results flagged for a closer look

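In 58 groups of whole CA RNA libraries and 46 of H3K4me3 libraries, 7 held a library that stood apart from the rest of its group. Chance gives about 1 in 20. H3K4me3 groups whose libraries all had the same covered length, such as those of Gad1, could not be flagged, so that rate does not hold for them. Neuron RNA groups were not checked. In whole CA RNA, Control replicate 1 was the highest for Calb2, at 15.1 CPM against 5.37 to 8.91 CPM in the other 5, and for Npas1, at 13.8 CPM against 8.45 to 10.04 CPM. The cKO replicate 3 was the highest for Dlx1, at 35.1 CPM against 29.6 to 31.2 CPM, and cKO replicate 5 for Dlx5, at 2.19 CPM against 1.28 to 1.59 CPM. For H3K4me3 within 1 kb of the start, cKO replicate 4 was the longest at Dlx2, at 1253 bp against 1010 to 1050 bp. At Lhx6, cKO replicate 1 was the shortest, at 1522 bp against 1983 to 2001 bp. At Satb1, Control replicate 4 was the shortest, at 1939 bp against 2001 bp in each of the others, the full window.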

How the results depend on the processing

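In neuron RNA, 1 member (Kit) was called with DESeq2 (4.25% of all genes were) and at an adjusted p under 0.1 (4.74%). Under the other alternatives 0 were called, including each replicate left out and the replicate block. In whole CA RNA, 1 (Kit) was called with DESeq2 (5.77% of all genes were) and at an adjusted p under 0.1 (6.24%). With the replicate block 2 were called (Cnr1, adjusted p = 0.0239, edgeR, and Kit), where 5.46% of all genes were. Leaving out each replicate gave 0 to 1. That 1 was Kit, without cKO replicate 4 (3.7% of all genes called) or without Control replicate 6 (3.62%). These counts of members lie near the shares over all genes. For H3K4me3, leaving out each replicate gave 0 to 1 (Dlx6os1, without cKO replicate 2, where 1.34% of all genes were called), and the replicate block gave 0. The interaction stayed at 0 of 29 throughout, the replicate block included. The members with an interval inside 1.5-fold numbered 24 to 27 in neurons and 23 to 27 in whole CA tissue, and those called between the materials 19 to 22. Among members not called, the sign changed under at least 1 alternative for 12 in neurons and 18 in whole CA tissue, so the direction of small values is not firm.

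Replicate numbers did not pair the libraries: same-numbered deviations correlated at -0.0569 to 0.286 in neurons and -0.0635 to 0.203 in whole CA tissue, and 2 of 6 and 2 of 12 libraries correlated best with their own number.

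Over all genes, neuron RNA gave 539 calls, but 833 with DESeq2, 930 at an adjusted p under 0.1, 327 with the replicate block, and 207, 259, 311 and 268 without cKO replicate 1 or 2 or Control replicate 2 or 3. Whole CA RNA gave 640, but 207 in replicates 1 to 3 and 224 in replicates 4 to 6. The interaction gave 28, but 69 without a filter, 67 with DESeq2, and 18 each without neuron cKO replicate 2 and without neuron Control replicate 1. H3K4me3 gave 167, but 2193 in the 2 kb window, 37 with the replicate block and 107 without Control replicate 2. The cause was not tested. Depth limits Dlx5, Sp9 and Dlx2 most, which hold the fewest whole CA reads.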
